A study of Mus musculus with 10 samples.

Results

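Cytochrome P450 genes were taken by their symbols, as every gene whose name is Cyp followed by a family number, a subfamily letter and a gene number, with at least 10 unique molecular identifiers (UMIs, each counting 1 captured RNA molecule) over all cells that the study kept. Of the 94 genes of that name pattern among 31053 genes in the matrices, 62 reached that level. They fell into 13 families and 30 subfamilies, of which Cyp2c with 13 genes, Cyp2d with 7, Cyp4f with 7, Cyp3a with 5 and Cyp2j with 4 were the largest. The rule used no difference between groups. Cyp51, the sterol demethylase of cholesterol synthesis, has no subfamily letter and gene number in its symbol and is given apart from the 62.

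P450 enzymes are heme proteins that insert an oxygen atom into their substrate, and most sit in the endoplasmic reticulum, where the reductase Por feeds them electrons. Members of the first families oxidise drugs, dietary compounds and pollutants and are controlled by factors that sense foreign compounds, such as the aryl hydrocarbon receptor Ahr and the xenobiotic receptors Nr1i2 and Nr1i3, and by the nuclear receptor Hnf4a. Family 4 hydroxylates fatty acids and eicosanoids at their ends, and further families make or clear sterols, bile acids, steroids, vitamin D and retinoic acid. In the small intestine the enterocyte, the absorptive cell of the villus, is known as the main site of first-pass P450 metabolism.

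Single-cell RNA sequencing had been run on mouse organoids, which are epithelial cultures grown from crypts of the proximal small intestine, and on crypts from the colon. ENR-organoids (3 libraries, passages 2, 7 and 3) grew in the standard medium, whose factors are Noggin, R-Spondin 1 and EGF. Hyper-organoids (3 libraries, passages 1, 6 and 3) grew in a medium with LDN193189 (an inhibitor of BMP receptors), GSK-3 Inhibitor XV, Pexmetinib, valproic acid (VPA, a histone deacetylase inhibitor, at 500 µM), EPZ6438 (which blocks Ezh2, a histone methyltransferase, at 2 µM), EGF, R-Spondin 1 conditioned medium and FGF2, and -VE-organoids (2 libraries, passages 1 and 6) grew in that medium without VPA and EPZ6438. Hyper-organoid replicates 1 and 2 and both -VE-organoid libraries came from ENR-organoids, and replicate 3 of the ENR-organoids and of the Hyper-organoids came from primary crypts. Library names share a first character (2, 6 or C) across conditions, no label says what it marks, and no -VE library is named C. The colonic crypts came as 1 library from normal mice and 1 from mice given dextran sulfate sodium (DSS), which injures the colonic epithelium.

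The organoid libraries held 1983 to 4293 kept cells and 89124015 to 170019527 UMIs each, and the colonic libraries 1132 cells with 19906845 UMIs (normal) and 1933 cells with 32397122 UMIs (DSS). At most 5 barcodes of kept cells were shared by any 2 libraries. The deposited class of each organoid cell was checked against its markers: all 6 enterocyte markers, 4 of 4 Paneth, 4 of 4 enteroendocrine, 3 of 3 transit amplifying, 3 of 3 revival stem, 3 of 4 stem, 3 of 4 enterocyte progenitor and 2 of 4 goblet markers were highest in the class they name, Tff3 and Muc2 being higher in Paneth cells. Cells with a UMI of the leukocyte gene Ptprc numbered 3 in ENR-organoid replicate 2, 0 in the other organoid libraries, 200 in the normal and 369 in the DSS colon. The 5 leukocyte markers summed to 0.584 to 0.991 CPM (UMI counts over the library total, times 1e6) over the 8 organoid libraries. The 4 stromal markers summed to 0.0358 to 0.0919 CPM in the ENR- and 0.485 to 0.774 in the Hyper-organoids. The 4 hepatocyte markers (Alb, Ttr, Serpina1a and Tat) were not near 0. They summed to 40.4 to 54.0 CPM in the ENR-, 67.6 to 76.6 in the -VE- and 46.9 to 103.7 in the Hyper-organoids, and their source was not tested. All these sums are TMM-scaled.

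The 62 genes held 504626 UMIs in all. In the ENR-organoids the 5 of highest mean level over all cells were Cyp2j6, Cyp4f14, Cyp2c65, Cyp2c66 and Cyp2s1, and in the Hyper-organoids Cyp2c55, Cyp2j6, Cyp1a1, Cyp2s1 and Cyp4b1. Cyp2j6, an epoxygenase of arachidonic and linoleic acid, averaged 96.7 ± 14.0 TMM-scaled CPM (SD, n = 3) in the ENR-organoids and 44.3 ± 2.76 (SD, n = 3) in the Hyper-organoids. TMM-scaled CPM rest on library totals that were scaled by the trimmed mean of M values. Since each UMI stands for 1 molecule caught at its 3′ end, levels of different genes were not divided by transcript length.

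Each gene was tested between conditions on UMI counts summed over all kept cells of a library, with edgeR's quasi-likelihood test fitted to all 8 organoid libraries and all genes. Calls needed at least a 2-fold change and an adjusted p below 0.05, by the method of Benjamini and Hochberg over all genes tested. Of the 62 P450 genes 47 passed the count filter and were tested, and the other 15 had at most 49 UMIs over the 8 libraries. Between Hyper- and ENR-organoids 31 of the 47 were called, against 22.9% of all 16037 genes tested. They were 10 higher, against 18.2% of all genes, and 21 lower, against 4.75%. The median log2 fold change was -1.05 over the 47 and -0.0073 over all genes tested. Between Hyper- and -VE-organoids 20 were called against 18.6% of all genes, as 10 higher against 16.1% and 10 lower against 2.51%. Between -VE- and ENR-organoids 11 were called against 2.55%, as 1 higher against 1.35% and 10 lower against 1.2%. The 11 were 5 without ENR-organoid replicate 2, where the calls over all genes went from 409 to 151. The 1 higher gene became 2 with DESeq2 and 3 without Hyper-organoid replicate 1, beside 292 and 262 of all genes in place of 217. The 10 higher in Hyper- than in -VE-organoids were 6 without -VE-organoid replicate 2. These 3 comparisons share libraries and are not independent. Libraries of the groups did not overlap for 10321 of all 16037 genes tested between Hyper- and ENR-organoids. Between Hyper- and -VE-organoids this held for 10748 genes, and between -VE- and ENR-organoids for 7329. A lack of overlap, given below for single genes, is thus common among all genes. A gene passed the filter only where it was high enough in at least 1 group, so the counts describe the tested genes and not all 62.

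Summed over cells, a lower level can come from fewer cells of a type or from less RNA per cell, and these cannot be told apart in such sums. Enterocytes were 9.78%, 13.1% and 12.4% of the kept cells in the ENR-organoids, 6.23% and 5.68% in the -VE-organoids, and 0.249%, 1.65% and 1.06% in the Hyper-organoids. They held 44.6%, 53.9% and 48.1% of all P450 UMIs in the ENR-organoids, 32.9% and 27.7% in the -VE-organoids and 3.45%, 14.4% and 7.34% in the Hyper-organoids. Over all cells the 6 enterocyte markers summed to 1876 to 2645 TMM-scaled CPM in the ENR-, 783 to 791 in the -VE- and 130 to 575 in the Hyper-organoids. The values within single classes, given further on, compare cells of 1 deposited class name, which need not be the same cells in each condition: the study's clustering set stem and transit amplifying cells of Hyper- and ENR-organoids apart.

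**Figure D1:**
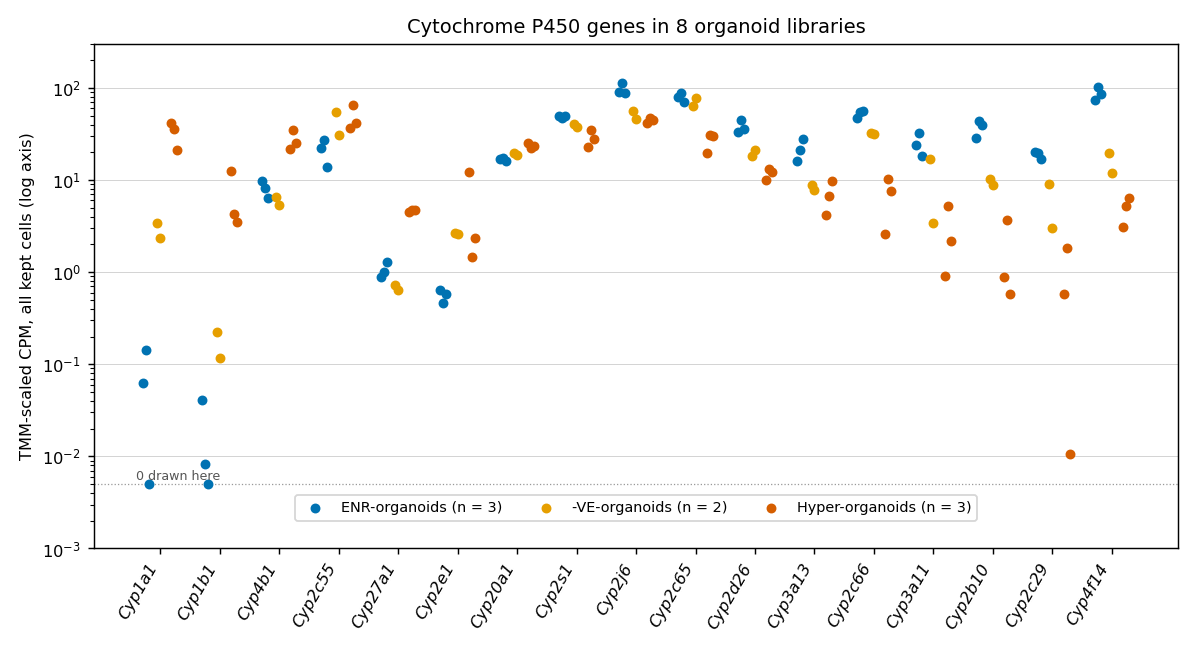
TMM-scaled CPM (log axis) of 17 P450 genes over all kept cells, 1 point per library, for 3 ENR-, 2 -VE- and 3 Hyper-organoid libraries; a level of 0 is drawn on the dotted line. The Hyper-organoid points of Cyp1a1 and Cyp1b1 lie above the -VE-organoid points and these above the ENR-organoid points, and those of Cyp4f14 lie in the opposite order.

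Cyp1a1 and Cyp1b1, the enzymes of polycyclic aromatic hydrocarbon oxidation and classical targets of Ahr, were close to 0 in the ENR-organoids and were the members with the largest rise in the Hyper-organoids among those with UMIs in the ENR-organoids. Cyp1a1 (chromosome 9) had 0.0621, 0.142 and 0 TMM-scaled CPM in the 3 ENR-organoid libraries, 3.40 and 2.36 in the -VE-organoids and 41.1, 35.5 and 21.4 in the Hyper-organoids. The 3 conditions did not overlap, with ENR-organoids lowest and Hyper-organoids highest. The log2 fold change was 8.73 ± 0.52 (SE, edgeR adjusted p = 6.4e-06) for Hyper- against ENR-organoids, 3.51 ± 0.41 (edgeR adjusted p = 0.00037) for Hyper- against -VE-organoids and 5.22 ± 0.56 (edgeR adjusted p = 0.0031) for -VE- against ENR-organoids. Cyp1b1 (chromosome 17) had 4, 1 and 0 UMIs in the ENR-organoids, 26 and 19 in the -VE-organoids and 1848, 652 and 330 in the Hyper-organoids. Hyper-organoid replicate 1 stood highest at 12.5 TMM-scaled CPM, beside 4.32 and 3.48 in the other replicates. It rose by a log2 value of 8.58 ± 0.86 (SE, edgeR adjusted p = 8.4e-05) against ENR- and 5.36 ± 0.76 (edgeR adjusted p = 0.00094) against -VE-organoids, and was not called between -VE- and ENR-organoids (log2 3.23 ± 1.13, edgeR adjusted p = 0.13). Cyp1a2, the liver form beside Cyp1a1, had at most 17 UMIs in any organoid library and was not tested.

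The 250 bases before the annotated start sites of these Ahr targets are shown, since both genes moved together (RefSeq promoter table, GRCm38.p6; Cyp1a1 at chr9:57697363-57697612 on the plus strand, Cyp1b1 at chr17:79715062-79715311 on the minus strand). Capitals mark the searched motifs on either strand: TATAAA (the TATA box), GCGTG (the core of the element that Ahr and Arnt bind) and GGGCGG (the GC box of Sp factors).
Cyp1a1: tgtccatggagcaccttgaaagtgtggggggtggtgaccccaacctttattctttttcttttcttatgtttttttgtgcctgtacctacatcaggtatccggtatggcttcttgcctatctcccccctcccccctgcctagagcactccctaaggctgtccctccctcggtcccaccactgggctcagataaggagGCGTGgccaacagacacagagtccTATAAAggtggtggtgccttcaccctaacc
Cyp1b1: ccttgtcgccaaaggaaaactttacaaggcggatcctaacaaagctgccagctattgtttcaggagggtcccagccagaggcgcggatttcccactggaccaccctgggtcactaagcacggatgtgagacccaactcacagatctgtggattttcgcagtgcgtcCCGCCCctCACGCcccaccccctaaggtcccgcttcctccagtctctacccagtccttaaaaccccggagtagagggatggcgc
In Cyp1a1 the TATA box starts at position -30 from the start site and GCGTG at -54. In Cyp1b1 GCGTG starts at -76 and GGGCGG at -84, both on the other strand, and TATAAA is not in this window. The RefSeq table held promoters for 50 of the 62 genes, with 56 entries. Of all 32817 promoters in it 28.1% hold GCGTG in the 250 bases, against 19.6% of the 56, and 12.4% hold TATAAA, against 33.9% of the 56. GGGCGG is in 32.7% of all promoters and in 14 of the 56. A match is a string of letters in the window, not a bound site.

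The Cyp2c, Cyp2d and Cyp3a subfamilies hold the main enzymes of drug and xenobiotic metabolism. Of the 13 Cyp2c genes 9 were tested and 6 fell while 1 rose against ENR-organoids, of 7 Cyp2d genes 6 were tested and 5 fell, and of 5 Cyp3a genes 4 were tested and 3 fell, where 4.75% of all genes tested fell and 18.2% rose. Cyp2b10, the mouse marker gene of Nr1i3 activity, stood at 28.5, 43.8 and 39.3 TMM-scaled CPM in the ENR-organoids, 10.2 and 8.77 in the -VE-organoids and 0.889, 3.65 and 0.58 in the Hyper-organoids. The 3 conditions did not overlap. It fell by 4.40 on the log2 scale in Hyper- against ENR-organoids (SE 0.60, edgeR adjusted p = 0.0004) and by 2.43 against -VE-organoids (SE 0.60, edgeR adjusted p = 0.011), and the -VE- against ENR-organoid value of -1.97 ± 0.61 was not called (edgeR adjusted p = 0.092). Within enterocytes alone Cyp2b10 had 296, 358 and 331 TMM-scaled CPM in the ENR- against 208 and 43.0 in the Hyper-organoids. That log2 value of -1.29 ± 0.42 (SE) was not called (edgeR adjusted p = 0.0504). Within goblet cells Cyp2b10 was called lower (log2 -6.18). Cyp3a11, a main drug-oxidising enzyme of mouse liver and gut and a target of Nr1i2, had 23.8, 32.3 and 18.0 TMM-scaled CPM in the ENR-organoids, 16.7 and 3.40 in the -VE-organoids and 0.903, 5.19 and 2.16 in the Hyper-organoids. It fell by 3.16 (SE 0.73, edgeR adjusted p = 0.0062) against ENR-organoids, without overlap. Between Hyper- and -VE-organoids the libraries overlapped and the value was -1.85 ± 0.75 (edgeR adjusted p = 0.075). Its neighbour Cyp3a25 fell by 2.68 (SE 0.52, edgeR adjusted p = 0.0028) against ENR- and by 2.54 (SE 0.55, edgeR adjusted p = 0.0065) against -VE-organoids, where the -VE-organoids had held 12.0 and 5.95 TMM-scaled CPM. Without -VE-organoid replicate 1 the latter call was lost (log2 -1.94, edgeR adjusted p = 0.0512). Cyp3a13, which lies apart from the Cyp3a cluster, fell by 1.67 (SE 0.30, edgeR adjusted p = 0.002) against ENR-organoids.

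The Cyp2c cluster on chromosome 19 (39007019 to 40187333, GRCm38) holds 12 of the 13 Cyp2c genes, which oxidise drugs and arachidonic acid, and its genes did not move in a single direction. Cyp2c55, the first gene of the cluster, was the Cyp2c gene that rose. It had 22.2, 27.2 and 13.8 TMM-scaled CPM in the ENR-organoids, 54.4 and 31.0 in the -VE-organoids and 36.9, 65.2 and 42.1 in the Hyper-organoids. Both of those groups lay above all ENR-organoid libraries and overlapped each other. The log2 fold change was 1.19 ± 0.32 (SE, edgeR adjusted p = 0.013) for Hyper- against ENR-organoids and 0.17 ± 0.35 for Hyper- against -VE-organoids (edgeR adjusted p = 0.71). The first value went under 2-fold without Hyper-organoid replicate 2 (0.91) and without ENR-organoid replicate 3 (0.97). Cyp2c65, the next gene, had 78.8, 87.2 and 69.5 TMM-scaled CPM in the ENR-organoids, 63.8 and 77.2 in the -VE-organoids and 19.8, 31.2 and 29.8 in the Hyper-organoids. The Hyper-organoids were lowest, without overlap, and the other groups overlapped. It fell by 1.54 (SE 0.17, edgeR adjusted p = 0.00015) against ENR- and by 1.39 (SE 0.19, edgeR adjusted p = 0.00074) against -VE-organoids.

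The 250 bases before the start sites of Cyp2c55 (chr19:39006769-39007018) and Cyp2c65 (chr19:39060756-39061005) are shown, both on the plus strand of GRCm38.p6. They were chosen because these neighbours moved in opposite directions in the sums over all cells. Within enterocytes both log2 values for Hyper- against ENR-organoids were above 0 (2.03 and 0.44), and within goblet cells they were 1.71 and -1.41. Capitals mark TATAAA and CAAAGTCCA, a form of the element that Hnf4a binds.
Cyp2c55: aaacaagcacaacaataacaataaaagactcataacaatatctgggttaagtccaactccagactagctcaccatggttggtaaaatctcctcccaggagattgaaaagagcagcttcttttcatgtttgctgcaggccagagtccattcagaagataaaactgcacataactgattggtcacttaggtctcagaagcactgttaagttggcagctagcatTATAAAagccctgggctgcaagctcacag
Cyp2c65: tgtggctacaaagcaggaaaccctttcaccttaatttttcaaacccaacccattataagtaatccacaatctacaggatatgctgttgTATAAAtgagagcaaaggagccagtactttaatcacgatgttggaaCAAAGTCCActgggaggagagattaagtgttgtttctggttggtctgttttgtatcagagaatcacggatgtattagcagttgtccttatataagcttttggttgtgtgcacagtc
TATAAA starts at -29 in Cyp2c55 and at -162 in Cyp2c65. The Cyp2c65 window also holds tatataa at -29, a similar string that the exact search for TATAAA leaves unmarked. The marked TATAAA positions therefore do not set the 2 promoters apart. CAAAGTCCA starts at -116 in Cyp2c65 and is not in the window of Cyp2c55. The Cyp2c55 window holds cagagtcca, a similar string that the exact search leaves unmarked, so this motif does not set the 2 promoters apart either. CAAAGTCCA is in 7 of the 56 promoter entries of the P450 genes (12.5%) and in 0.384% of all promoters. The 7 are those of Cyp2c40, Cyp2c65, Cyp2c67, Cyp2c68, Cyp2c69, Cyp2c70 and Cyp3a11. All of these but Cyp3a11 are neighbours in the Cyp2c cluster, so the entries are not independent. AGGTCA and AGTTCA, hexamers that nuclear receptors bind, were each searched on both strands and are in 17.9% and 16.1% of the 56 and in 14.0% and 11.9% of all promoters.

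Cyp2c66, the third gene of the cluster, had 47.6, 55.1 and 55.6 TMM-scaled CPM in the ENR-organoids, 32.2 and 32.0 in the -VE-organoids and 2.57, 10.1 and 7.61 in the Hyper-organoids. The conditions did not overlap, and it fell by 2.96 (SE 0.41, edgeR adjusted p = 0.00046) in Hyper- against ENR-organoids and by 2.25 (SE 0.43, edgeR adjusted p = 0.0036) against -VE-organoids. Cyp2c29 had 20.1, 19.8 and 17.0 TMM-scaled CPM in the ENR-organoids, 9.01 and 2.99 in the -VE-organoids and 0.577, 1.85 and 0.0105 in the Hyper-organoids, and it fell by 4.47 (SE 0.87, edgeR adjusted p = 0.0027) against ENR-organoids. Its fall against -VE-organoids (2.81, edgeR adjusted p = 0.03) was lost without ENR-organoid replicate 1 (adjusted p = 0.0549) or 2 (0.054), -VE-organoid replicate 1 (0.209) or Hyper-organoid replicate 1 (0.0625), and with DESeq2 (adjusted p = 0.0902). Within enterocytes alone the Cyp2c29 value for Hyper- against ENR-organoids was -1.57 ± 0.74 (SE) and was not called (edgeR adjusted p = 0.16). Cyp2c38 was read in 113, 223 and 120 UMIs in the ENR-organoids, 37 and 23 in the -VE-organoids and 0, 0 and 1 in the Hyper-organoids. It was called lower in all 3 comparisons, the -VE- against ENR-organoid call being lost without ENR-organoid replicate 2 (edgeR adjusted p = 0.0644) or -VE-organoid replicate 2 (0.112). Cyp2c68 and, outside the cluster, Cyp2c23 also fell against ENR-organoids, by 2.03 (SE 0.25) and 2.86 (SE 0.29). For Cyp2c70 and Cyp2c67 ENR-organoid replicate 3 stood apart, at 15.1 against 3.45 and 4.48 TMM-scaled CPM for Cyp2c70 and 1.05 against 0.311 and 0.367 for Cyp2c67. Hyper-organoid replicate 3, whose name shares the first character, was also highest of its group in transit amplifying cells. There the Hyper-organoids had 0.355, 2.29 and 4.49 plain CPM of Cyp2c70 and 0.0761, 0.0765 and 0.246 of Cyp2c67. Neither gene was called in any comparison by these fits, which had no replicate block. Genes of this cluster, like those of the Cyp2d, Cyp3a, Cyp4f and Cyp2j clusters, have near-identical copies, so reads can be shared between neighbours and the values of single genes there are uncertain.

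Among the Cyp2d genes, a cluster of 7 on chromosome 15, Cyp2d26 was the most abundant, with 33.5, 45.3 and 35.7 TMM-scaled CPM in the ENR-organoids, 18.0 and 21.0 in the -VE-organoids and 10.1, 13.1 and 12.4 in the Hyper-organoids. The conditions did not overlap, and it fell by 1.69 (SE 0.14, edgeR adjusted p = 3.2e-05) in Hyper- against ENR-organoids and by less than 2-fold in the other comparisons (log2 -0.72 and -0.97). Cyp2d10, Cyp2d9, Cyp2d34 and Cyp2d11 fell by 4.48, 2.53, 4.00 and 3.28 in Hyper- against ENR-organoids. Cyp2d22 differed from these. It had 1.28, 1.28 and 1.04 TMM-scaled CPM in the ENR-organoids, 0.471 and 0.146 in the -VE-organoids and 1.07, 0.597 and 0.844 in the Hyper-organoids, so that only the -VE-organoids were low and Hyper- and ENR-organoids overlapped. Cyp2d22 was called lower in -VE- than in ENR-organoids (-1.99 ± 0.48, edgeR adjusted p = 0.043) and higher in Hyper- than in -VE-organoids (1.46 ± 0.47, edgeR adjusted p = 0.033). Each of these calls was lost without any 1 of 5 libraries (adjusted p = 0.0559 to 0.167 and 0.0527 to 0.141), among them -VE-organoid replicate 2, without which the values were -1.36 and 0.84.

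Cyp2e1, which oxidises ethanol and other small molecules, went the other way. It had 0.642, 0.459 and 0.585 TMM-scaled CPM in the ENR-organoids, 2.66 and 2.57 in the -VE-organoids and 12.3, 1.47 and 2.35 in the Hyper-organoids. The ENR-organoids were lowest, Hyper-organoid replicate 1 stood far above the other replicates, and Hyper- and -VE-organoids overlapped. The log2 fold change was 3.26 ± 0.77 (SE, edgeR adjusted p = 0.007) for Hyper- against ENR-organoids, and 1.77 without Hyper-organoid replicate 1.

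Of the fatty acid hydroxylases of family 4, Cyp4f14, an enzyme of leukotriene and vitamin E breakdown, fell the most. It had 73.8, 102 and 85.3 TMM-scaled CPM in the ENR-organoids, 19.7 and 12.0 in the -VE-organoids and 3.1, 5.23 and 6.46 in the Hyper-organoids. The conditions did not overlap, and the step was called in each comparison, with log2 fold changes of -4.15 ± 0.30 (SE, edgeR adjusted p = 1.8e-05) for Hyper- against ENR-organoids, -1.69 ± 0.30 (edgeR adjusted p = 0.0027) for Hyper- against -VE-organoids and -2.46 ± 0.33 (edgeR adjusted p = 0.0068) for -VE- against ENR-organoids. The last call was lost without -VE-organoid replicate 2 (-2.15, edgeR adjusted p = 0.0619). Of the 7 Cyp4f genes 6 were tested and 3 fell against ENR-organoids, where 4.75% of all genes tested fell, Cyp4f40 by 2.03 and Cyp4f15 by 1.65 (edgeR adjusted p = 0.003 and 0.042). Cyp4f13 and Cyp4f16 did not reach 2-fold (-0.36 and -0.86).

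Cyp4b1, which hydroxylates medium-chain fatty acids and activates furans, rose in the Hyper-organoids. It had 9.79, 8.13 and 6.35 TMM-scaled CPM in the ENR-organoids, 6.57 and 5.33 in the -VE-organoids and 21.5, 35.3 and 25.2 in the Hyper-organoids. The Hyper-organoids lay above both other groups, which overlapped each other, and the log2 fold change was 1.76 ± 0.22 (SE, edgeR adjusted p = 0.00024) against ENR- and 2.20 ± 0.25 (edgeR adjusted p = 0.00036) against -VE-organoids. Cyp4v3 and Cyp2u1, which hydroxylate fatty acids, were lowest in the -VE-organoids. Cyp4v3 had 13.1, 14.9 and 12.7 TMM-scaled CPM in the ENR-organoids, 5.66 and 4.08 in the -VE-organoids and 7.15, 7.18 and 6.85 in the Hyper-organoids, a log2 value of -1.48 ± 0.15 (SE, edgeR adjusted p = 0.0024) for -VE- against ENR-organoids and of -0.94 ± 0.13, under 2-fold, for Hyper- against ENR-organoids. Cyp2u1 fell by 1.70 (SE 0.16, edgeR adjusted p = 0.0021) in the -VE-organoids and by 1.05 (SE 0.13, edgeR adjusted p = 0.0003) in the Hyper-organoids, the latter going under 2-fold without Hyper-organoid replicate 1 (-0.94) or ENR-organoid replicate 2 (-0.98) and with upper-quartile scaling (-0.95). Cyp4a10, a lauric acid hydroxylase and target of Ppara, was called in Hyper- against -VE-organoids (3.95 ± 0.91, edgeR adjusted p = 0.0086), with 98, 115 and 9 UMIs against 5 and 4. This call was lost without -VE-organoid replicate 2 (edgeR adjusted p = 0.0797).

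Single genes of the higher families serve sterols, vitamin D and retinoids. Cyp27a1, a mitochondrial enzyme that oxidises the side chain of cholesterol and bile acid precursors, had 0.89, 1.01 and 1.30 TMM-scaled CPM in the ENR-organoids, 0.719 and 0.633 in the -VE-organoids and 4.52, 4.73 and 4.67 in the Hyper-organoids. The Hyper-organoids lay above both other groups with little spread, and the log2 fold change was 2.12 ± 0.17 (SE, edgeR adjusted p = 2.3e-05) against ENR- and 2.78 ± 0.20 (edgeR adjusted p = 4.7e-05) against -VE-organoids. Cyp46a1, which hydroxylates cholesterol in brain, had 2, 1 and 2 UMIs in the ENR-organoids, 1 and 1 in the -VE-organoids and 127, 98 and 50 in the Hyper-organoids. It rose by 5.26 ± 0.41 (log2, SE, edgeR adjusted p = 2.3e-05) against ENR-organoids, at a low level of at most 0.862 TMM-scaled CPM. Cyp7b1, which hydroxylates oxysterols, had 0 UMIs in all 3 ENR-organoid libraries, 2 and 0 in the -VE-organoids and 38, 25 and 8 in the Hyper-organoids. Over each group its plain CPM was at least 19.7-fold higher in the Hyper- than in the ENR-organoids, with 3 counts over the group as the floor. Cyp27b1, which makes active vitamin D, had 15, 10 and 7 UMIs in the ENR-organoids, 9 and 8 in the -VE-organoids and 72, 59 and 35 in the Hyper-organoids, and rose by 1.95 ± 0.34 (log2, SE, edgeR adjusted p = 0.0014) against ENR-organoids. Cyp39a1, an oxysterol hydroxylase, stayed under 2-fold (0.62 and 0.97 for Hyper- against ENR- and -VE-organoids), and Cyp2r1, a vitamin D hydroxylase, was not called in any comparison. Cyp24a1, which inactivates vitamin D, had 39 UMIs over the 8 libraries and was not tested.

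Cyp26b1, which clears retinoic acid, went down. It had 1.84, 2.41 and 3.30 TMM-scaled CPM in the ENR-organoids, 0.633 and 0.0487 in the -VE-organoids and 0.475, 0.179 and 0.0844 in the Hyper-organoids. The ENR-organoids were highest without overlap and the other groups overlapped, and it fell by 3.31 (SE 0.84, edgeR adjusted p = 0.0097) in Hyper- against ENR-organoids. Cyp11a1, which starts steroid synthesis, had 14, 12 and 3 UMIs in the ENR-organoids, 33 and 28 in the -VE-organoids and 71, 43 and 36 in the Hyper-organoids, a log2 value of 1.99 ± 0.46 (SE, edgeR adjusted p = 0.0061) for Hyper- against ENR-organoids. Cyp20a1, an enzyme of unknown substrate, stood at 16.1 to 17.5, 18.8 to 19.8 and 22.5 to 25.04 TMM-scaled CPM in ENR-, -VE- and Hyper-organoids. Its log2 fold change of 0.49 ± 0.06 passed the test (edgeR adjusted p = 0.00028) under 2-fold. Cyp51 had 197.5, 201.8 and 208.9 TMM-scaled CPM in the ENR-organoids and 158.7, 152.3 and 161.9 in the Hyper-organoids, and was not called.

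P450 RNA was densest in enterocytes. Summed over the 62 genes it came to 2867 to 3676 plain CPM (relative to the total of the class, without TMM scaling) in the enterocytes of the 3 ENR-organoid libraries, 276 to 324 in their stem cells, 469 to 550 in enterocyte progenitors, 263 to 307 in transit amplifying cells, 265 to 348 in goblet cells, 173 to 237 in Paneth cells and 403 to 535 in enteroendocrine cells. The enterocytes did not overlap with any of these classes. In the Hyper-organoids, where 2 libraries had at least 20 enterocytes, the enterocyte sum was 2338 and 3526, overlapping the ENR-organoids, and their stem cells held 345 to 412. In the -VE-organoids the enterocyte sum was 2146 and 2661, below all 3 ENR-organoid libraries. Over all kept cells the sum averaged 658 ± 71.1 plain CPM (SD, n = 3) in the ENR-, 391 ± 43.8 (SD, n = 2) in the -VE- and 368 ± 45.7 (SD, n = 3) in the Hyper-organoids.

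**Figure D2:**
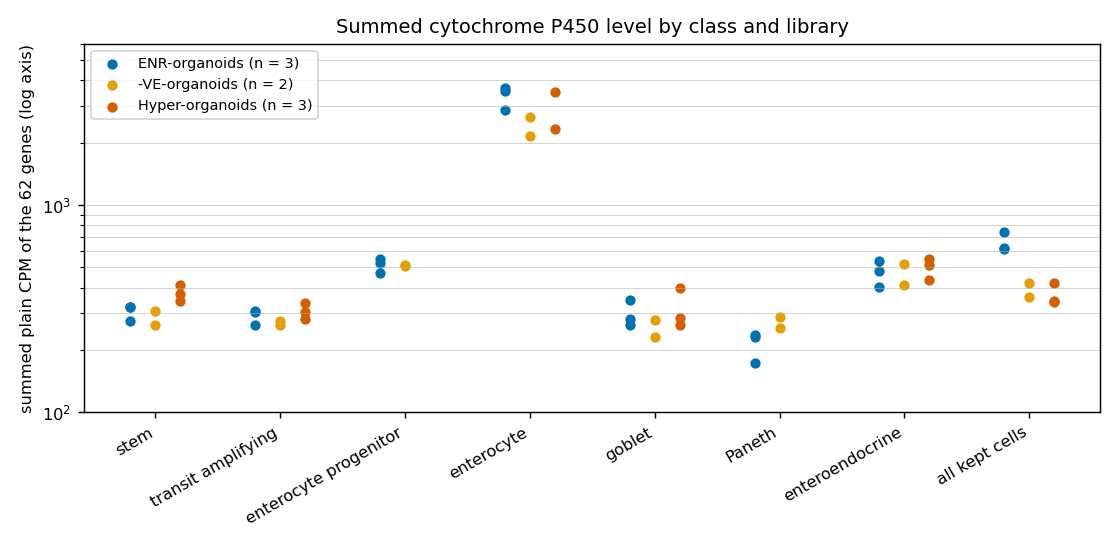
Summed plain CPM of the 62 P450 genes (log axis) by deposited cell class, 1 point per library with at least 20 cells of the class, for ENR-, -VE- and Hyper-organoids. Enterocytes lie above every other class, at 2867 to 3676 in the ENR-organoids.

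The class in which a gene was highest, among classes at 1 plain CPM or more, was the enterocyte for 29 genes in the ENR-organoids, for 24 in the -VE- and for 27 in the Hyper-organoids, and 27, 26 and 26 genes stayed under 1 CPM in every class. These counts rest on 7 classes in the ENR- and -VE-organoids and on 5 in the Hyper-organoids, where no library had 20 Paneth cells or enterocyte progenitors, so the Hyper-organoid count cannot be compared with the others. In ENR-organoid enterocytes Cyp4f14 reached 529, 584 and 445 plain CPM, Cyp2j6 475, 499 and 337 and Cyp2b10 297, 355 and 312. Cyp4b1 was highest in enteroendocrine cells, at 245, 131 and 97.6 plain CPM in the ENR- and 154, 159 and 126 in the Hyper-organoids. In the ENR-organoids Cyp2e1 was highest in Paneth cells, followed by goblet cells. It had 48.5, 27.8 and 28.9 plain CPM in Paneth cells of the ENR-organoids, 5.69, 4.51 and 5.54 in their goblet cells and at most 0.438 in their enterocytes. In Hyper-organoid replicate 1 it had 140 plain CPM in goblet cells, 18.5 in enteroendocrine cells, 6.23 in stem cells and 5.22 in transit amplifying cells, while the stem and transit amplifying cells of the other Hyper-organoid libraries held at most 0.229. Cyp39a1 was highest in transit amplifying cells of the ENR-organoids, at 7.75, 7.61 and 7.81 plain CPM. Cyp20a1 had 17.9, 19.0 and 16.8 plain CPM in transit amplifying cells and 9.76, 9.44 and 7.11 in enterocytes of the ENR-organoids, without overlap. These orders are given as values, since no test between classes was made.

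**Figure D3:**
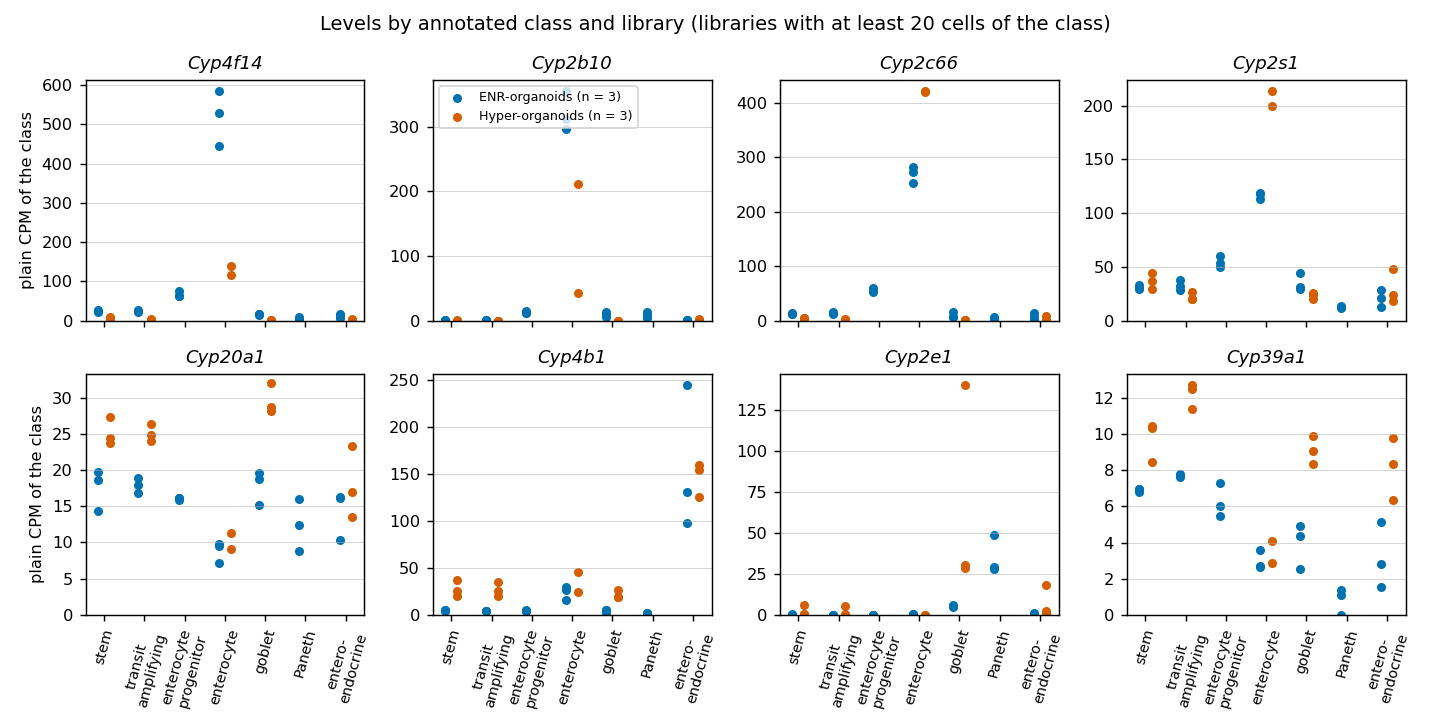
Plain CPM of 8 P450 genes by deposited cell class in ENR- and Hyper-organoids, 1 point per library with at least 20 cells of the class (2 Hyper-organoid libraries for enterocytes). Cyp4f14, Cyp2b10, Cyp2c66 and Cyp2s1 are highest in enterocytes, Cyp4b1 in enteroendocrine cells and Cyp2e1 in Paneth and goblet cells.

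Each comparison was repeated on counts summed within the stem, enterocyte and goblet classes. In stem cells 36 P450 genes were tested. Between Hyper- and ENR-organoids 8 were called higher, against 15.2% of all genes, and 6 lower, against 2.8%. Between Hyper- and -VE-organoids 9 were higher against 14.7% and 3 lower against 1.76%, and between -VE- and ENR-organoids 1 was higher against 0.23% and 2 lower against 0.273%. The 6 lower in Hyper- than in ENR-organoids were 10 with the first character of the library names as a replicate block. The 8 higher were 5 without ENR-organoid replicate 2, beside 1890 of all genes called higher in place of 2119. The 3 lower in Hyper- than in -VE-organoids were 5 without Hyper-organoid replicate 2 or 3. The 3 calls of -VE- against ENR-organoids were 0, 1 and 1 without ENR-organoid replicate 1, 2 and 3, and 6 without Hyper-organoid replicate 1. The calls over all genes moved as well, from 70 to 8, 26, 38 and 149 in these 4 fits. In enterocytes 35 were tested. Between Hyper- and ENR-organoids 4 were higher against 7.78% and 10 lower against 3.08%, between Hyper- and -VE-organoids 5 higher against 5.12% and 1 lower against 1.75%, and between -VE- and ENR-organoids 2 higher against 1.44% and 11 lower against 1.9%. The last calls, 13 in both directions, were 4 without -VE-organoid replicate 2. The 10 lower in Hyper- than in ENR-organoids were 6 without ENR-organoid replicate 2 or Hyper-organoid replicate 3, and the 4 higher were 2 without Hyper-organoid replicate 2. The 5 higher in Hyper- than in -VE-organoids were 3 without -VE-organoid or Hyper-organoid replicate 2, and the 1 lower was 0 without any 1 ENR-organoid library, -VE-organoid replicate 1 or Hyper-organoid replicate 3 and 2 without -VE-organoid or Hyper-organoid replicate 2. The 2 higher in -VE- than in ENR-organoids were 0 without ENR-organoid replicate 1 or either -VE-organoid library and 1 without ENR-organoid replicate 3. Leaving out a -VE-organoid library, or a Hyper-organoid library in enterocytes, leaves 1 library in that arm, whose spread is then assumed to be that of the other groups. Without ENR-organoid replicate 1 or 2 the -VE- against ENR-organoid calls in enterocytes were 10 each in place of 13. The calls over all genes there were 259 and 214 in place of 373. In goblet cells 25 were tested. Between Hyper- and ENR-organoids 6 were higher against 10.7% and 8 lower against 2.64%, between Hyper- and -VE-organoids 7 higher against 8.72% and 3 lower against 1.15%, and between -VE- and ENR-organoids 0 higher against 0.529% and 4 lower against 0.606%. DESeq2 also gave 0 higher there, 1 was higher without Hyper-organoid replicate 1 and 3 without a filter on low counts, and 4 had a higher value at an unadjusted edgeR p under 0.05. The 4 lower in -VE- than in ENR-organoids were 2 without ENR-organoid replicate 1 or 3, beside 55 and 63 of all genes called in place of 133. The 3 lower in Hyper- than in -VE-organoids were 5 without ENR-organoid replicate 1 or 3 or -VE-organoid replicate 2.

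Of the 21 genes that fell over all cells in Hyper- against ENR-organoids, 20 were tested within enterocytes and 9 were called lower there, 17 were tested within stem cells and 6 called, and 12 were tested within goblet cells and 7 called. Of all 762 genes that fell over all cells, 31.9% of the 501 tested within enterocytes were called lower there, 52.7% of the 556 within stem cells and 51.7% of the 391 within goblet cells. Cyp4f14 was called lower in all 3 classes. Its stem cells held 27.0, 24.6 and 24.3 TMM-scaled CPM in the ENR-organoids and 2.82, 3.95 and 7.97 in the Hyper-organoids (log2 -2.39 ± 0.34, edgeR adjusted p = 0.00038), its enterocytes 528, 590 and 472 against 138 and 116 (-2.05 ± 0.23, edgeR adjusted p = 0.00036) and its goblet cells 17.2, 13.7 and 17.6 against 2.64, 0.447 and 2.33 (-3.18 ± 0.47, edgeR adjusted p = 0.0004). The groups did not overlap in any class. That held for 8096 of all 13920 genes tested in stem cells, 5992 of 11154 in enterocytes and 5173 of 11714 in goblet cells. The 6 enterocyte markers, none of them at 0 in any library, summed to 75.5 to 97.9 TMM-scaled CPM in ENR- and 50.1 to 300.5 in Hyper-organoid stem cells, which overlapped, and to 208 to 402 and 22.8 to 46.05 in goblet cells, where they were lower without overlap, as Cyp4f14 was. Cyp4f14 came to 25.2% to 35.8% of that marker sum in ENR-organoid stem cells, 4.28% to 7.35% in goblet cells and 2.37% to 2.78% in enterocytes, and in the Hyper-organoids to 2.65% to 5.63%, 1.69% to 11.6% and 0.475% to 0.672%. The share of enterocyte RNA in the stem and goblet cell values was not tested. Of the 10 that rose over all cells, Cyp1a1 and Cyp27a1 were called higher in all 3 classes. Cyp27a1 rose by 1.74 ± 0.18 in stem cells, 2.48 ± 0.39 in enterocytes and 3.22 ± 0.46 in goblet cells (log2, SE, edgeR adjusted p = 7.7e-05, 0.0019 and 0.00031). Cyp1a1 had 39.8, 34.5 and 20.5 TMM-scaled CPM in stem cells of the Hyper-organoids against 0.235, 0.331 and 0 in the ENR-organoids. In enterocytes its UMIs were 24 and 2 against 0, 3 and 0. That call was lost without Hyper-organoid replicate 2, a fit with 1 Hyper-organoid library left.

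**Figure D4:**
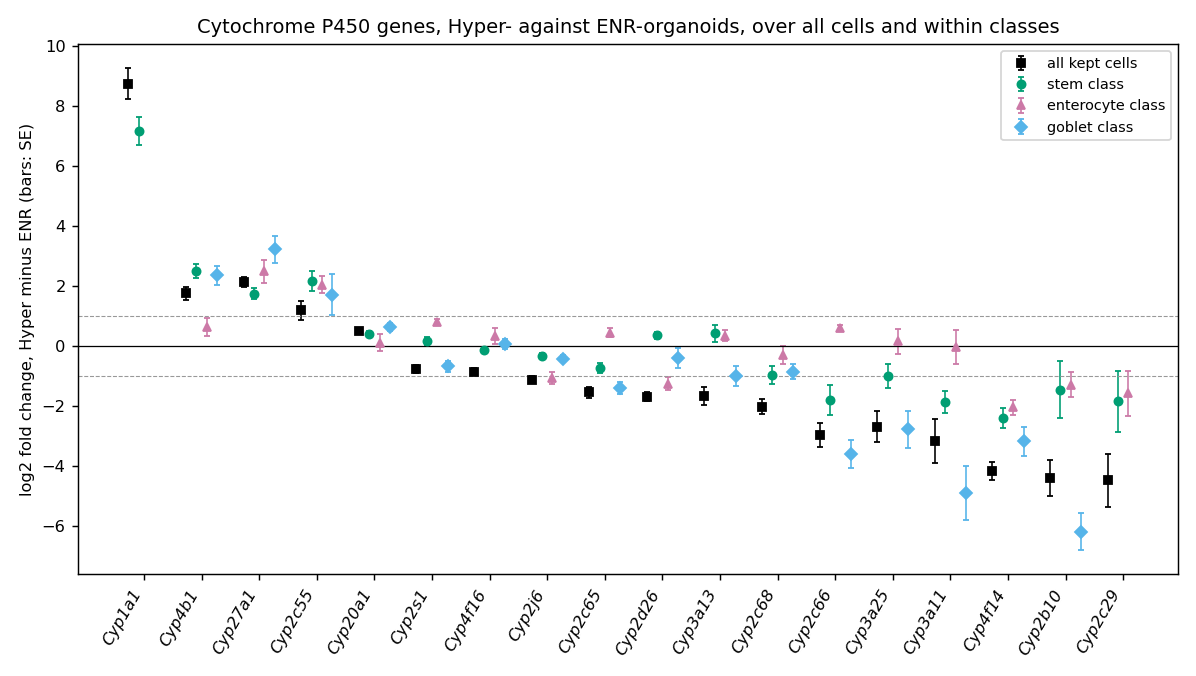
Log2 fold change of Hyper- against ENR-organoids (SE bars) for 18 P450 genes over all kept cells and within stem, enterocyte and goblet cells, from the edgeR fits; points are left out where the ENR-organoids had 3 UMIs or fewer in all. Cyp4f14 is below 0 in each and Cyp27a1 above 0 in each, while Cyp2c66 is above 0 in enterocytes and below 0 in the other classes.

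Within enterocytes several genes of high level over all cells did not fall. Cyp3a11 had 278, 275 and 165 TMM-scaled CPM in the ENR-organoid enterocytes, 283 and 50.2 in the -VE- and 292 and 169 in the Hyper-organoid enterocytes. The groups overlapped and the log2 fold change was -0.03 ± 0.55 (SE, edgeR adjusted p = 0.98). Cyp2c65 had 244, 246 and 199 against 335 and 285 in the Hyper-organoid enterocytes (log2 0.44). Cyp2c66 had 282, 276 and 269 against 416 and 419, a value of 0.60 ± 0.10 that passed the test (edgeR adjusted p = 0.0029) under 2-fold. Cyp2s1, a P450 of epithelia, likewise passed under 2-fold, with 118, 114 and 126 against 211 and 199 (0.79 ± 0.10, edgeR adjusted p = 0.0007). Cyp2c55 rose in enterocytes, with 108, 129 and 65.8 in the ENR-, 282 and 228 in the -VE- and 528 and 293 in the Hyper-organoids (2.03 ± 0.28, edgeR adjusted p = 0.001), and in stem cells, with 14.1, 12.6 and 9.73 against 39.5, 71.0 and 54.7 in the Hyper-organoids (2.16 ± 0.33, edgeR adjusted p = 0.0006). Cyp2j6 fell by 1.07 (SE 0.21, edgeR adjusted p = 0.0057) in enterocytes, which went under 2-fold with the replicate block (-0.99) and without ENR-organoid replicate 2 (-0.96) or Hyper-organoid replicate 3 (-0.80). Cyp4a10 rose in enterocytes, from 11, 17 and 14 UMIs to 108 and 6 (4.31 ± 0.54, edgeR adjusted p = 0.00061). This call was lost without Hyper-organoid replicate 2 (log2 2.07), a fit with 1 Hyper-organoid library left. Cyp3a13 was called higher in Hyper- than in -VE-organoids within enterocytes (1.03) and stem cells (1.1), and both went under 2-fold without Hyper-organoid replicate 3 (0.87 and 0.72). Without -VE-organoid replicate 2 the adjusted p was 0.0557 and 0.116, and without -VE-organoid replicate 1 it was 0.0641 in stem cells.

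In goblet cells Cyp2e1 had 5.93, 4.49 and 5.97 TMM-scaled CPM in the ENR-, 27.3 and 19.1 in the -VE- and 133, 27.1 and 30.8 in the Hyper-organoids. Hyper-organoid replicate 1 was highest, and the log2 fold change against ENR-organoids was 3.58 ± 0.66 (SE, edgeR adjusted p = 0.0017), and 2.42 without that library. Cyp2b10 had 46, 28 and 33 UMIs in ENR-organoid goblet cells, 17 and 28 in those of the -VE-organoids and 0, 1 and 1 in those of the Hyper-organoids, and Cyp3a11 had 38, 20 and 6, then 16 and 12, then 0, 2 and 1. The 6 enterocyte markers moved with these genes: 6 of 6 were called lower in Hyper- against ENR-organoid goblet cells, Fabp1 from 132, 65.7 and 84.5 to 4.97, 8.04 and 15.9 TMM-scaled CPM. Their part in the goblet cell values was not tested. Within stem cells 2 of the 6 were lower (Apoa1 and Sis) and 1 higher (Reg1), and within enterocytes 1 was lower (Sis). Cyp4v3 was called lower in -VE- than in ENR-organoids in all 3 classes, by 1.5 (SE 0.18) in stem cells, 1.45 (SE 0.21) in enterocytes and 2.42 (SE 0.36) in goblet cells (edgeR adjusted p = 0.0082, 0.0039 and 0.0072). The stem cell call was lost without ENR-organoid replicate 1 (adjusted p = 0.0546) and the goblet cell call without -VE-organoid replicate 2 (0.113).

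Whether the Hyper- against ENR-organoid change differed between classes was tested in 1 fit over the classes, with the library as a block. Between enterocytes and stem cells it differed for 1 gene in the direction of a larger value in enterocytes, against 1.85% of all genes, and for 4 in the other, against 1.9%, of 37 tested. Between goblet and stem cells it differed for 0 in the direction of goblet cells (2 at an unadjusted edgeR p under 0.05), against 1.22%, and for 4 in the other, against 2.61%, of 32 tested. Cyp2c66 had the larger value in enterocytes, with a log2 difference of 1.87 ± 0.15 (SE, edgeR adjusted p = 1.91e-06). Cyp4b1, which rose from 5.09, 4.71 and 3.89 to 19.2, 35.3 and 24.2 TMM-scaled CPM in stem cells, had 29.1, 26.1 and 16.4 against 44.5 and 24.6 in enterocytes, and the difference between the classes was -2.22 ± 0.20 (edgeR adjusted p = 6.29e-06).

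The genes that serve P450 enzymes were taken as 2 lists. Of the 16 tested genes for redox partners and heme supply 0 were called by edgeR in any of the 3 comparisons over all cells, against 22.9%, 18.6% and 2.55% of all genes, while 11, 7 and 5 had an unadjusted p under 0.05. Por had 97.1, 104 and 108 TMM-scaled CPM in the ENR-organoids and 72.1, 88.1 and 68.5 in the Hyper-organoids (log2 -0.44). Of 23 receptors and factors that control P450 genes 3 were called higher, against 18.2% of all genes, and 4 lower, against 4.75%, in Hyper- against ENR-organoids. Ahrr, the repressor of Ahr and itself an Ahr target, had 8, 13 and 4 UMIs in the ENR-, 36 and 39 in the -VE- and 75, 72 and 58 in the Hyper-organoids, in the same order of groups as Cyp1a1 (log2 2.69 for Hyper- against ENR-organoids). Ahr was not called, at 10.4, 10.1 and 11.5 TMM-scaled CPM in the ENR- and 9.01, 9.26 and 10.8 in the Hyper-organoids. The activity of Ahr was not tested. Nr1i3 fell by 3.30 on the log2 scale, and Ppara, Nr1h3 and Hnf4g were the others called lower. Nr1i2 (-0.13), Vdr (-0.87) and Hnf4a (-0.79) were not called.

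The colonic libraries, 1 per condition, allow no test, and intervals cover counting error only. The 62 genes summed to 1019 plain CPM (95% exact Poisson interval 1005 to 1033) in the normal and 861 (851 to 871) in the DSS colon, with 25 and 28 genes at 1 CPM or more. The libraries also differed in their cells. Deposited cluster 3 had 274 of its 275 cells in the normal library and held 8168 of the 20281 P450 UMIs there. Cluster 7 had 139 of its 147 cells in the DSS library, with 3370 of 27888. A change in cell make-up and one in RNA per cell cannot be told apart in these library sums. Cyp2c55 was the most abundant, at 321 plain CPM (313 to 329) in the normal and 155 (150 to 159) in the DSS library, followed in the normal colon by Cyp2c65 at 166 and Cyp4f14 at 98.3. Cyp1a1, Cyp3a11 and Cyp2b10 had 0 UMIs in both libraries, for which the 95% interval reaches 0.185 CPM in the normal and 0.114 in the DSS library. On the log2(CPM + 1) scale 4 of 29 genes passed a 2-fold ratio as higher in DSS, against 3.55% of all genes, and 1 as lower, against 1.53%. Cyp2c55 was the lower gene. The higher ones were Cyp4f18 (4 UMIs in the normal and 228 in the DSS library), Cyp2c66 (48 and 293), Cyp27a1 (45 and 179) and Cyp2c67 (1 and 38), and Cyp27a1 was not among them in cells with at least 1500 genes. Cyp4f18 stood at 0.201 and 7.04 CPM, and at 0.159 and 1.78 CPM once cells with a Ptprc UMI were left out. Whether the cells left still included leukocytes was not tested.

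**Figure D5:**
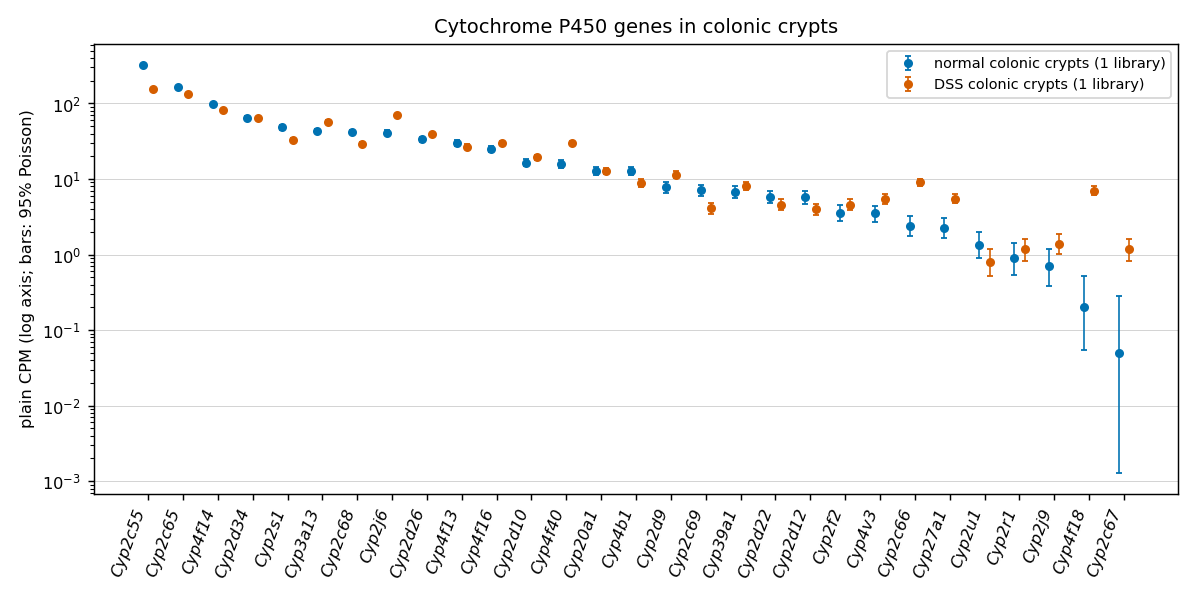
Plain CPM (log axis) of P450 genes in the normal and the DSS colonic library with 95% exact Poisson intervals, 1 library per condition. Cyp2c55 is highest in both, at 321 in the normal and 155 in the DSS library.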

How the data were processed

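UMI counts per gene and cell had been made and deposited by the authors from 10x 3′ libraries, with Cell Ranger (version 3.0.0) and Seurat (version 3.1.4) named in the submitters' processing notes. The classes of organoid cells are the deposited ones. Kept cells were those in the deposited cell table, 1983 to 4293 of 3926 to 6715 barcodes per organoid library. The study's methods discard cells under 1500 genes or over 25% mitochondrial reads, but the table holds cells from 501 genes up, and 1924 to 4184 per organoid library pass that filter, which was run as an alternative. No doublet caller was run, and the merged count table was not used. Counts of kept cells were summed per gene and library, or per gene, library and class where a class had at least 20 cells. Sums were tested with edgeR 4.0.16 (limma 3.58.1, R 4.3.3) by the quasi-likelihood F test with TMM factors and filterByExpr, with DESeq2 1.42.0 as an alternative, and the edgeR fits had been tested on simulated data. P-values measure the spread between libraries. Colonic libraries were compared by ratio at a pseudocount of 1 CPM. All 62 members matched GENCODE (GRCm38) by identifier as protein-coding genes, which gave their coordinates. Other alternatives were upper-quartile factors, other filters, the replicate block and leaving out each library. Reads were not mapped or counted anew, and read sharing between near-identical genes could not be resolved from the counts.

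The members and gene lists were chosen with earlier results of these data known. Genes were named by rule: members called over all kept cells, at most 10 per direction and comparison; the 10 of highest mean in each organoid group and colonic library; colonic members at a ratio of at least 2; and Cyp51, Por, Nr1i2, Ahr, Vdr and Hnf4a. Further genes named in a class, a list or as not tested were chosen after their values were seen, and so was the fit of differences between classes. The edgeR fits behind the printed values had no replicate block. Libraries whose names share a first character deviated together for Hyper- and ENR-organoids (r = 0.251, 0.21 and 0.522 across 16037 genes), and a fit with that character as a block was an alternative. The -VE-organoids have only 2 such pairs with each group, with r = 0.185 and 0.0109 to ENR- and 0.2 and 0.136 to Hyper-organoids. Hyper- and ENR-organoid pairs of unlike first character had r = 0.0751 and 0.185 among replicates 1 and 2, the latter near the 0.21 of a like pair. Those of replicate 3 with another replicate ran from -0.398 to -0.195, so replicate 3 stood apart more clearly than replicates 1 and 2 from each other.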

Additional observations from a re-analysis of the deposited data

Results flagged for a closer look

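The change from ENR- to Hyper-organoids differed between cell classes for 9 tests of P450 genes, by a test of the difference itself (edgeR, library as a block, chosen after seeing the data). The numbers of P450 genes tested are given above. Of all genes 1.85% were called larger and 1.9% smaller in enterocytes than in stem cells, and 1.22% and 2.61% in goblet than in stem cells. The 1 P450 gene larger in enterocytes lies near the share of all genes. Between enterocytes and stem cells the differences in log2 fold change were 1.87 for Cyp2c66 (adjusted p = 1.91e-06), -1.73 for Cyp2d26 (4.03e-05), -2.62 for Cyp2u1 (0.000236), -2.22 for Cyp4b1 (6.29e-06) and -2.675 for Cyp2d22 (0.0171). Cyp2d26 had 9.72, 11.2 and 8.89 TMM-scaled CPM in ENR- and 11.6, 13.0 and 13.9 in Hyper-organoid stem cells, while its enterocytes went from 283, 310 and 241 to 146 and 79.9. The Cyp2d22 call was lost without ENR-organoid replicate 1 (0.0894) or 2 (0.0935) or Hyper-organoid replicate 3 (0.063).

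Between goblet and stem cells the differences were -4.89 for Cyp2b10 (edgeR adjusted p = 0.0099), -1.76 for Cyp2c66 (0.022), -1.61 for Cyp2j9 (0.0309) and -1.375 for Cyp3a13 (0.00151). Cyp2b10 lost its call without Hyper-organoid replicate 2 (0.177), Cyp2c66 without ENR-organoid replicate 1 (0.0896) or Hyper-organoid replicate 2 (0.0844) or 3 (0.138), and Cyp2j9 without ENR-organoid replicate 1 (0.148) or 3 (0.0586) or Hyper-organoid replicate 2 (0.136). The enterocyte markers fell in the goblet class with these genes, and their part in the differences was not tested.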

How the results depend on the processing

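No called value of a named gene or of a class difference changed its direction under any alternative that still tested it. The numbers that follow cover only called values still tested. A call that a filter took out counts there as neither kept nor lost. Of the single values under alternatives other than leaving out a library, 847 kept their side of the threshold and 23 lost it, and of those without 1 library 1054 kept it and 150 lost it. With only genes at 10 CPM in 2 libraries, fewer genes being tested, the P450 calls over all cells were 14, 9 and 5 of 20 tested. These are for Hyper against ENR, Hyper against -VE and -VE against ENR, beside 800, 528 and 166 of all 8419 genes. For the first 2 comparisons stem cells gave 5 and 4 of 15, beside 627 and 504 of all 8212 genes. Enterocytes gave 8 and 2 of 23 for these 2, beside 699 and 472 of all 7641 genes. Goblet cells gave 5, 3 and 0 of 13, beside 648, 443 and 95 of all 8373 genes. The calls of named genes were 65 in place of 147. With at least 5 cells per library, run within classes only, they were 80 in place of 86 within classes. Hyper against -VE in enterocytes then gave 3 P450 calls, beside 715 of all genes in place of 766. For -VE against ENR in stem cells DESeq2 gave 6 and no filter 7, beside 156 and 183 of all genes in place of 70. Without a filter goblet cells gave 17 for Hyper against -VE, beside 1626 of all genes in place of 1156. For -VE against ENR they gave 10, beside 351 of all genes in place of 133. With cells of at least 1500 genes 0 genes led in Hyper-organoid enterocytes, since 1 library then had at least 20 enterocytes and 2 were needed, and a pseudocount of 5 CPM left 2 colonic genes.

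With the first character of the library names as a replicate block, -VE against ENR in stem cells gave 5 calls in place of 3 (4 lower in place of 2). All genes called there were 140 in place of 70. Over all cells that comparison gave 2 higher in place of 1, beside 226 of all genes in place of 217. Hyper against -VE gave 5 lower in place of 3 in stem cells and in goblet cells and 0 in place of 1 in enterocytes. Cyp3a13 in Hyper against -VE went under 2-fold in enterocytes (0.88) and stem cells (0.80). Cyp2c38 in enterocytes (edgeR adjusted p = 0.0869) and Cyp4f40 over all cells (0.0913), both Hyper against -VE, lost their calls, besides Cyp3a13 and the Cyp2j6 call given above, and no other named call was lost.

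Without 1 library the counts ran over all cells from 28 to 34, 17 to 20 and 3 to 14, in stem cells from 10 to 15, 9 to 14 and 0 to 6, in enterocytes from 10 to 14, 4 to 6 and 4 to 15 and in goblet cells from 12 to 15, 10 to 12 and 0 to 5. Differences between classes gave 4 to 7 (enterocyte and stem) and 1 to 5 (goblet and stem; 2 without ENR-organoid replicate 1, 1 without Hyper-organoid replicate 2), and named genes 108 to 134. Where 1 library is left in an arm, its spread is assumed to be that of the other groups. The calls over all genes moved as well. For -VE against ENR without ENR-organoid replicate 1 they went from 409 to 252 over all cells. They went from 70 to 8 in stem cells and from 133 to 55 in goblet cells. The cause of the other changes was not tested. Depth limits genes of a few UMIs and the 2 Hyper-organoid libraries with 58 and 21 enterocytes.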

Other observations

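In Hyper-organoid replicate 3, the library with at least 20 revival stem cells, that class held 90.7 plain CPM of Cyp1a1 and 21.8 of Cyp1b1. With 1 library there is no replicate check. In the colon, cells were grouped by the deposited cluster numbers. Clusters 17 (57 cells, all DSS), 6 (157 DSS and 64 normal cells) and 12 (93 of 94 normal) had the highest summed P450 levels, at 5285, 2813 and 2357 plain CPM, and a cluster mostly of 1 library may be that library. Clusters 11 and 0 had the lowest, at 96.1 and 113 plain CPM. Cyp4f18 reached 396, 341 and 135 plain CPM in clusters 21, 15 and 8, where Ptprc stood at 433, 385 and 206 plain CPM. Of the cells in these clusters 20 of 21, 66 of 66 and 109 of 116 came from the DSS library.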
